A study of Mus musculus with 6 samples.

Results

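The miR-106b-25 cluster is a set of 3 microRNA (miRNA) hairpins in an intron of the mouse gene Mcm7, and the miR-106a-363 cluster is its relative of 6 hairpins on the X chromosome. The 10 mature arms described here were taken by name from a table of 1109 mature miRNAs, and all 10 had a row. The table comes from small RNA sequencing of RAW 264.7, a mouse macrophage-like cell line that the labels describe as male. The control group holds 3 libraries of cells without treatment, for which the labels give no time and the column names of the table say 0 h. The oxLDL group holds 3 libraries made after 48 h with ox-LDL, an oxidized form of the cholesterol-carrying particle LDL that turns macrophages into lipid-laden foam cells. Nothing in the labels tells whether the 3 libraries of a group were separate cultures, so p-values measure the spread between these libraries, which may be technical. Time in culture and treatment cannot be told apart, and no preparation date or batch is given.

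A miRNA hairpin is cut into a duplex with a 5p and a 3p arm. One strand is usually loaded into an Argonaute protein as the guide, and the other, the passenger, is mostly lost. A loaded miRNA finds its target messages mainly through its seed, bases 2 to 8. The miR-106b-25 hairpins share their host with the message of Mcm7, a subunit of the replicative DNA helicase, and in human cells the host is a target of the cell-cycle factor E2F1. Both clusters are paralogs of the miR-17-92 cluster (host gene Mir17hg). In human cells miR-106b-5p and miR-93-5p repress the cell-cycle inhibitor CDKN1A, and miR-25-3p represses the pro-apoptotic BCL2L11. Members of the miR-17 seed family also repress the cholesterol exporter ABCA1, which macrophages use to unload cholesterol.

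The mature sequences are shown because the seeds sort the arms into families and because some arms differ from an abundant relative by very few bases. They are RefSeq sequences (GRCm38.p6), 5′ to 3′, with the seed in capitals, and were matched for all 10 members. The arms of the Mcm7 intron are these.
mmu-miR-106b-5p: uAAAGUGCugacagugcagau
mmu-miR-106b-3p: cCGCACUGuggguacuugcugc
mmu-miR-93-5p: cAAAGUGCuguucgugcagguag
mmu-miR-93-3p: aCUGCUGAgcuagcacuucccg
mmu-miR-25-3p: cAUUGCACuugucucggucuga
mmu-miR-25-5p: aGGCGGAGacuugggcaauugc
Those of the X chromosome cluster follow, with their nearest relatives.
mmu-miR-106a-5p: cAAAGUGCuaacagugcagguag
mmu-miR-20b-5p: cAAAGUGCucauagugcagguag
mmu-miR-18b-5p: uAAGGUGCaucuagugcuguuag
mmu-miR-363-3p: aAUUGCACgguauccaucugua
mmu-miR-17-5p: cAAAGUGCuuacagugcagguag
mmu-miR-20a-5p: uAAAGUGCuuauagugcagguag
mmu-miR-18a-5p: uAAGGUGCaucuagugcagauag
mmu-miR-92a-3p: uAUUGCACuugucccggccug

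By seed, miR-106b-5p, miR-93-5p, miR-106a-5p and miR-20b-5p fell into the miR-17 family with miR-17-5p and miR-20a-5p. The arms miR-25-3p and miR-363-3p shared their seed with miR-92a-3p, miR-92b-3p and miR-32-5p, and miR-18b-5p shared its seed with miR-18a-5p. The arms miR-106b-3p, miR-93-3p and miR-25-5p each had a seed of their own among these sequences. Counted from 1 at the 5′ end and written with the base of the first-named miRNA first, miR-17-5p and miR-106a-5p differed by U10A alone. From miR-20a-5p to miR-20b-5p the differences were U1C and U10C, and from miR-18a-5p to miR-18b-5p they were A18U and A20U. From miR-25-3p to miR-92a-3p they were C1U, U14C and U18C over the 21 positions that both have.

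In GRCm38 all 3 hairpins of the first cluster lie within 498 bases on the minus strand of chromosome 5, in intron 13 of Mcm7 (transcript Mcm7-201, 15 exons), which is transcribed in the same direction. Mir106b spans 138165737 to 138165818, Mir93 spans 138165523 to 138165610 and Mir25 spans 138165321 to 138165404. Of the Mcm7 transcripts, 1 has an exon over Mir93 and 1 an exon over Mir25. The 6 hairpins of the second cluster lie within 875 bases on the minus strand of the X chromosome, from Mir106a (52742503 to 52742567) through Mir18b, Mir20b, Mir19b-2 and Mir92-2 to Mir363 (52741693 to 52741767). The long non-coding RNA gene Kis2 overlaps Mir106a by 5 bases. Reads of miR-19b-3p and miR-92a-3p can come from this cluster or from Mir17hg, since each has a hairpin in both, and they are not counted as members.

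The libraries held from 5502826 to 7373188 miRNA reads, so that 1 CPM (1 read after scaling a library to 1000000) stood for 5.503 to 7.373 reads before TMM scaling. The 10 arms together took 0.852% to 1.18% of the reads of a library. The macrophage and myeloid list of 5 miRNAs, among them miR-142a-5p and miR-223-3p, was present in full and summed to between 66515 and 78872 CPM in control and between 70331 and 76268 CPM in oxLDL. Control replicate 2 stood apart in traces of other tissues. Its 5 erythroid and serum markers summed to 281 CPM against 84.3 and 93.5 in the other controls and 44.0 to 78.4 in oxLDL, its hepatocyte marker miR-122-5p to 85.6 CPM against 18.6 and 5.05, and its 4 muscle markers to 486 CPM against 90.8 and 77.4. No marker of these lists was at 0 over all libraries. Muscle markers ranged from 63.0 to 236 CPM in oxLDL and miR-122-5p from 1.97 to 11.9 CPM. The 2 endothelial markers summed to between 277 and 478 CPM in control and between 104 and 269 CPM in oxLDL. The 5 epithelial markers summed to between 76.7 and 110.3 against 113 to 128 CPM. The groups did not overlap for either sum nor for the erythroid one. Single markers were split: of the 5 epithelial ones 2 passed the threshold used below as higher and 1 as lower. Of 5 erythroid and 1 endothelial markers tested, 1 each passed as lower and 0 as higher, as did 1 of the 5 macrophage and myeloid ones. Over all tested miRNAs 21.7% were higher and 24.0% lower. The sums of the 5 fibroblast markers (4009.9 to 6174 CPM in control, 2866 to 5643 CPM in oxLDL) and the 2 neural markers (21.2 to 51.8 against 18.4 to 47.9 CPM) overlapped. Of the 4 fibroblast markers tested, 1 passed as lower and 0 as higher. Of the 3 muscle, 1 hepatocyte and 1 neural markers tested, 0 passed. The part of such traces in the results below was not tested. Without control replicate 2, 5 members passed the threshold used below, in place of 6. Over all entries 197 of 484 then passed, in place of 217 of 475. The member lost was miR-18b-5p, a low-count arm that the filter described below admitted through the oxLDL libraries alone. In bulk libraries, fewer cells of a type and less RNA per cell cannot be told apart.

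After ox-LDL the arms of the Mcm7 intron moved in opposite directions. Its most abundant arm, miR-25-3p, was 1.43 times lower, while its neighbour miR-93-5p was 1.27 times higher. The 3 arms with no family seed, miR-106b-3p, miR-93-3p and miR-25-5p, all fell, miR-25-5p by the most at 3.59 times lower. On the X chromosome every arm had 62 reads or fewer in each library. The filter on low counts, 1.522 CPM in at least 3 libraries, left 9 of the 10 arms. Of these miR-18b-5p passed it through the oxLDL libraries alone, so it is left out of the next counts, and 8 reached the minimum in every library. By edgeR's quasi-likelihood test at a Benjamini-Hochberg threshold of 0.05, 1 of the 8 was higher and 4 were lower. Over all 475 tested miRNAs 45.7% passed, 21.7% higher and 24.0% lower. Control and oxLDL values were fully separate for 7 of the 8 arms, against 59.4% of all tested entries. The median log2 fold change was -0.43 over the 8 arms and -0.13 over all 475. With miR-18b-5p counted, though the filter admitted it through oxLDL alone, 6 arms passed, 2 higher and 4 lower. That split was 0 higher and 4 lower with library totals alone, where miR-18b-5p did not pass. It was 3 and 3 with centring on the median miRNA, where miR-18b-5p passed. The count of 6 was 2 without control replicate 1 and 3 without oxLDL replicate 2, neither with miR-18b-5p. Over all entries, 169 of 487 and 161 of 495 passed in those settings, in that order.

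**Figure D1:**
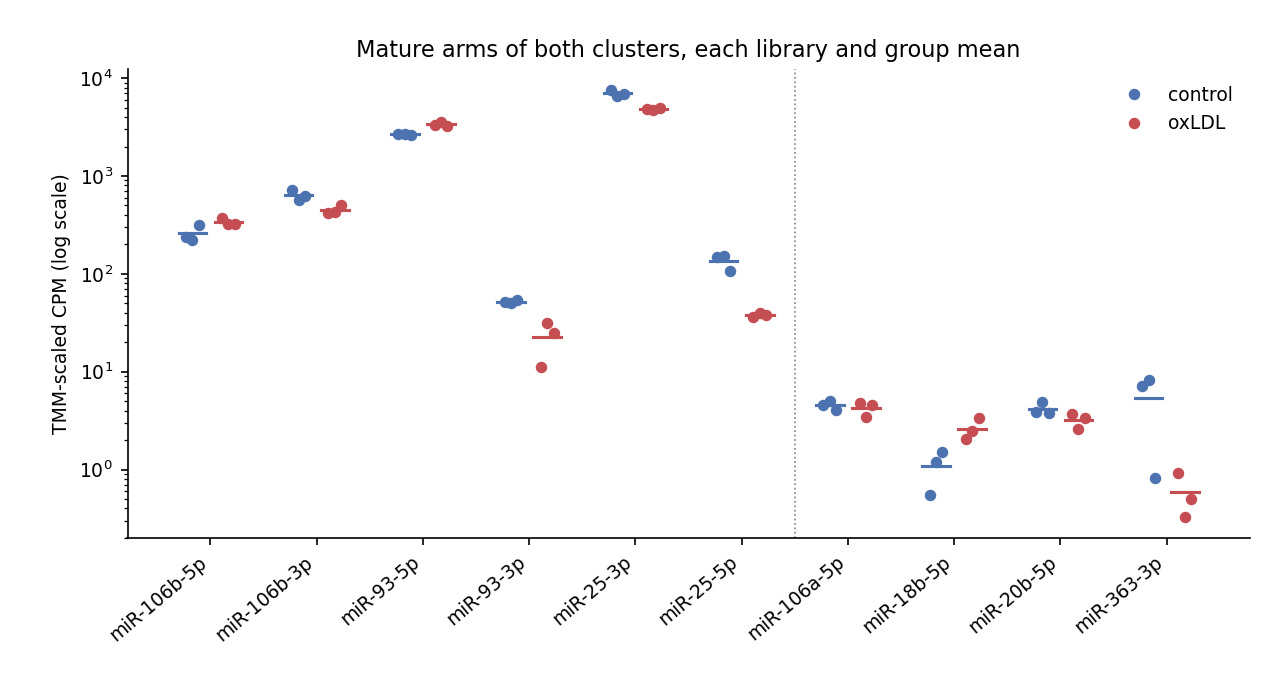
Level of each of the 10 arms in CPM after TMM scaling (log axis), with 1 point per library and a line at the group mean of 3 libraries; the dotted line separates the miR-106b-25 arms from the miR-106a-363 arms. The arm miR-25-3p lies near 6974 CPM in control and 4870.4 CPM in oxLDL, and the X chromosome arms lie at group means between 0.588 and 5.38 CPM.

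The arm miR-25-3p carries the seed it shares with miR-92a-3p. Its level was 7511, 6539.7 and 6873 CPM in control and 4874, 4771 and 4966 CPM in oxLDL, or 6974 ± 493 against 4870.4 ± 97.5 CPM (mean ± SD, n = 3 each). Every oxLDL library lay below every control library. The log2 fold change was -0.52 (SE 0.0914, edgeR adjusted p = 0.00265). The call and direction held under all 15 other settings tried, from -0.67 to -0.39 on the log2 scale. The other strand of that duplex, miR-25-5p, stood at 149, 152 and 106 CPM in control and 36.3, 39.6 and 37.6 CPM in oxLDL. The oxLDL libraries lay close together and far below the lowest control. Its log2 fold change was -1.84 (SE 0.185, edgeR adjusted p = 0.000190), and it also passed under all 15 other settings.

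The next hairpin gave the opposite direction for its main arm. The level of miR-93-5p, which has the miR-17 seed, was 2668, 2716 and 2632 CPM in control and 3315, 3580.0 and 3248 CPM in oxLDL, or 2672 ± 42.5 against 3381 ± 175 CPM. All 3 oxLDL libraries were above all 3 controls. The log2 fold change of 0.34 (SE 0.0898, edgeR adjusted p = 0.0165) was smaller with library totals alone (0.18, edgeR adjusted p = 0.137). The call was also lost with no filter on low counts and with equal replicate numbers fitted as a block (the replicate block). Omitting any of control replicate 1, control replicate 3 and oxLDL replicate 2 lost it too (edgeR adjusted p from 0.0625 to 0.0823 over these settings). Its passenger miR-93-3p fell from 51.3, 50.03 and 53.8 CPM in control to 11.2, 31.7 and 24.7 CPM in oxLDL. The oxLDL libraries were spread, with replicate 1 lowest, yet none reached the controls. This is 2.29 times lower (log2 fold change -1.19, SE 0.332, edgeR adjusted p = 0.0202; 0.0580 without control replicate 1).

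From the first hairpin of the intron, miR-106b-5p, the strand with the miR-17 seed, did not pass. It was at 239, 221 and 318 CPM in control and 371, 327 and 326 CPM in oxLDL. Control replicate 3 lay just below the lowest oxLDL library, and the other controls lay well below. The log2 fold change was 0.40, with a 95% interval from 0.011 to 0.78 before adjustment (edgeR adjusted p = 0.0825). It passed without control replicate 3 (0.54, edgeR adjusted p = 0.0223) and with centring on the median miRNA (0.53, edgeR adjusted p = 0.0338). The other strand, miR-106b-3p, fell from 727, 566 and 623 CPM to 421, 432 and 509 CPM. The highest oxLDL library lay below the lowest control. Its log2 fold change was -0.49 (SE 0.141, edgeR adjusted p = 0.0226). The call was lost with median centring, with the replicate block, and without control replicate 1 or oxLDL replicate 2 (edgeR adjusted p from 0.0563 to 0.0936).

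**Figure D2:**
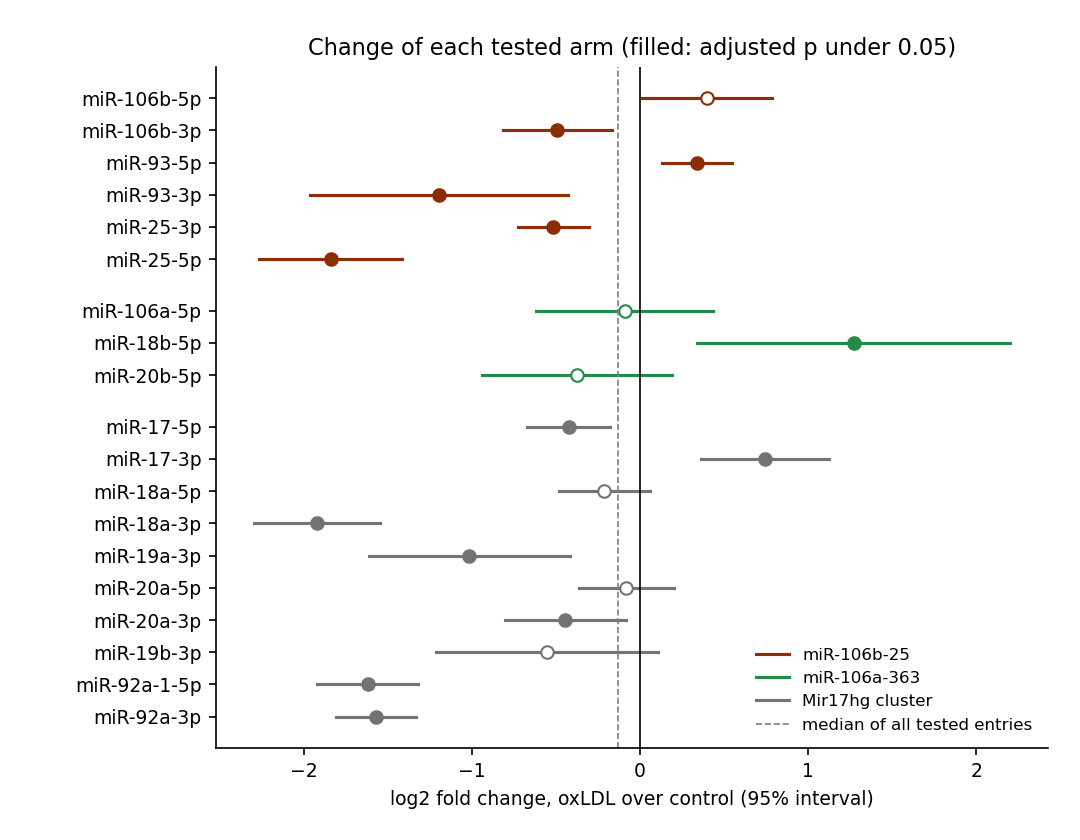
Log2 fold change of oxLDL over control with its 95% interval for the 9 tested members and the 10 tested arms of the Mir17hg cluster; filled points passed the edgeR threshold of 0.05, and the dashed line is the median of all tested miRNAs, -0.13. The interval of miR-93-5p lies above 0 and those of both miR-25 arms lie below it.

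To see how the arms of 1 primary transcript moved relative to each other, reads were compared within each library, which needs no scaling between libraries. The ratio of miR-93-5p to miR-25-3p was 0.355, 0.415 and 0.383 in control and 0.680, 0.750 and 0.654 in oxLDL. It was 1.81 times higher after ox-LDL, with no overlap (log2 change 0.85, SE 0.0878). For miR-106b-5p over miR-25-3p the ratio was 1.90 times higher (log2 change 0.93, SE 0.180), also with no overlap. The ratio of the 2 arms with the miR-17 seed, miR-106b-5p over miR-93-5p, changed by 0.07 on the log2 scale (SE 0.193), and the groups overlapped. Between arms without a family seed, miR-106b-3p over miR-25-5p went from 4.88, 3.72 and 5.87 to 11.6, 10.9 and 13.5. Ratios of 9 pairs were compared in all. With 3 libraries against 3 the exact two-sided permutation test cannot go below p = 0.10, the value reached by each of the 5 pairs whose groups did not overlap (Benjamini-Hochberg adjusted p = 0.18, exact permutation). For miR-93-5p and miR-106b-5p over miR-25-3p, and for miR-18b-5p over miR-18a-5p, the scaled levels of the single arms already lay apart in opposite directions. The separation of those ratios follows from that and is no independent support.

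The CPM of both strands were also summed for each hairpin, which does not measure the level of the hairpin itself. For miR-25 the sum was 1.45 times lower in oxLDL, at 7110.0 ± 497 against 4908 ± 96.5 CPM (mean ± SD, n = 3 each). Nearly all of it is miR-25-3p (means of 6974 CPM in control and 4870.4 CPM in oxLDL), so it largely repeats the fall of that arm. For miR-93 the sum was 1.25 times higher, at 2724 ± 40.7 against 3404 ± 182 CPM. Most of that sum is miR-93-5p, whose log2 fold change was 0.18 with library totals alone. For miR-106b it was 898 ± 96.8 against 795 ± 37.5 CPM, and the groups overlapped, the mean of 5p being higher and that of 3p lower. The 6 arms together went from 10732 ± 560.1 to 9107 ± 76.3 CPM.

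The hairpins below, cut from 1 transcript, are shown because both strands of each were measured and the balance between them changed. RefSeq sequences (GRCm38.p6, minus strand of chromosome 5) are given 5′ to 3′, with the 5p arm first and the 3p arm second, both in capitals.
Mir106b: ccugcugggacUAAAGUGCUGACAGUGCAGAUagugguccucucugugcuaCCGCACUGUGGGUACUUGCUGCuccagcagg
Mir93: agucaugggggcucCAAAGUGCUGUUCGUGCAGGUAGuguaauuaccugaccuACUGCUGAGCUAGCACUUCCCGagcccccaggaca
Mir25: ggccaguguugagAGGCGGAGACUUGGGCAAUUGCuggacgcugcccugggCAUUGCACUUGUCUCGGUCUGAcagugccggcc

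The balance of strands was measured as reads of the 5p over reads of the 3p arm in each library and tested with limma over all 124 hairpins with at least 10 reads per library on average in each arm. All 3 hairpins passed at 0.05 after adjustment, 2 higher and 1 lower, where 39.5% of all hairpins passed, 21.8% higher and 17.7% lower. For miR-93 there were 51.9, 54.2 and 48.9 reads of 5p per read of 3p in control and 294, 113 and 131 in oxLDL. The ratio was 3.16 times higher (log2 change 1.66, SE 0.354, limma adjusted p = 0.00843), with oxLDL replicate 1 far above the others. Without that library the log2 change was 1.24 (limma adjusted p = 0.00696). The scaled levels of miR-93-5p and miR-93-3p already lay apart in opposite directions. The separation of the miR-93 ratio follows from that and is no independent support. For miR-25, whose 3p arm is the abundant one, 50.4, 42.9 and 64.8 reads of 3p per read of 5p in control became 134, 120.3 and 132 in oxLDL. That is 2.47 times more (log2 change of 5p over 3p -1.31, SE 0.211, limma adjusted p = 0.00354), and every oxLDL library lay above every control.

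Of the miR-106b hairpin the 3p arm had more reads in every library. Its ratio of 5p to 3p was 0.329, 0.390 and 0.511 in control and 0.881, 0.757 and 0.641 in oxLDL, 1.87 times higher and without overlap (log2 change 0.90, SE 0.234, limma adjusted p = 0.0190). That separation follows from the scaled levels of both strands, which lay apart in opposite directions. The call was lost on omitting any of the first 2 libraries of either group (limma adjusted p from 0.0502 to 0.0742). In miR-93 and miR-25 the strand with fewer reads fell relative to the other, and so it did in 87 of the 124 hairpins, a count added after the values were seen. In miR-106b the less read strand, 5p, rose relative to the other. Adaptor ligation favours some ends, so read ratios between strands are not ratios of molecules, while their change between groups does not depend on a constant bias.

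**Figure D3:**
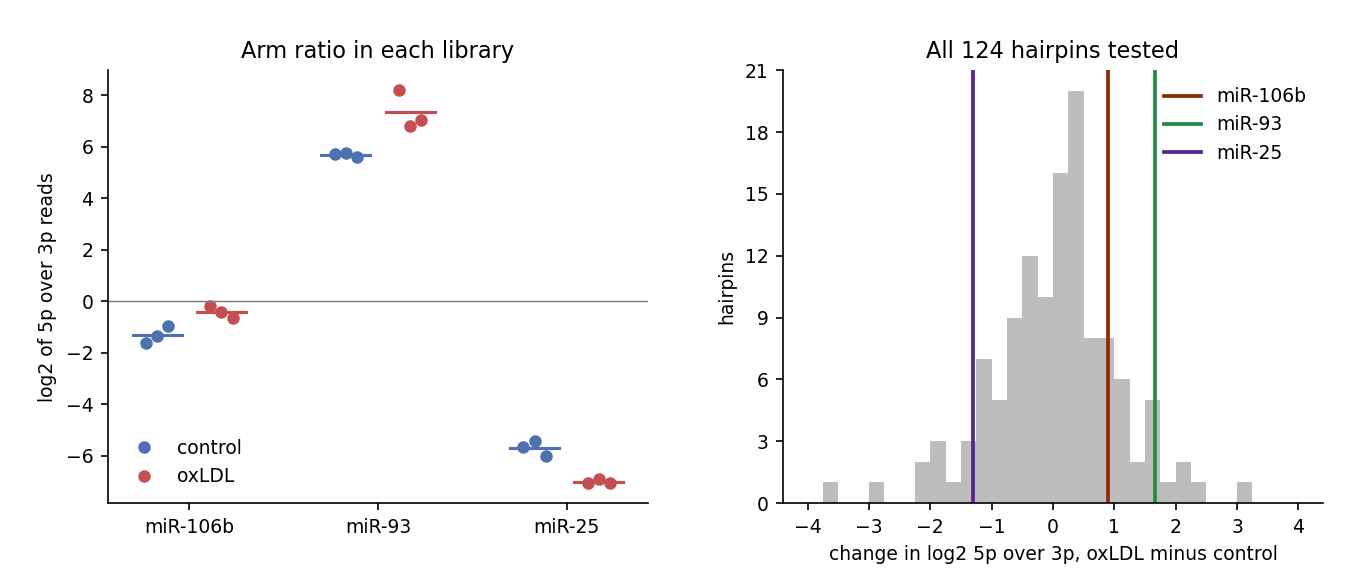
Left, log2 of 5p over 3p reads in each library for the 3 hairpins of the Mcm7 intron, with a line at each group mean; right, the change of that ratio (oxLDL minus control) for all 124 hairpins tested, with the 3 hairpins marked. The changes of 0.90, 1.66 and -1.31 lie on both sides of 0.

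Within the miR-25 and miR-17 seed families the arms of the Mcm7 intron took a larger share of the reads after ox-LDL, as did miR-32-5p and miR-92b-3p. In the miR-25 family, miR-25-3p gave 17.5%, 18.5% and 17.6% of the reads in control and 30.2%, 30.6% and 31.7% in oxLDL. The share of miR-92a-3p was 81.8% ± 0.555 in control and 68.1% ± 0.668 in oxLDL (mean ± SD, n = 3 each). Both arms fell, miR-92a-3p more, from 32011 to 10771 CPM (log2 fold change -1.57, edgeR adjusted p = 5.32e-05). The ratio of miR-25-3p to miR-92a-3p was 0.212, 0.228 and 0.215 in control and 0.440, 0.447 and 0.470 in oxLDL (exact permutation p = 0.10). The family sum, which miR-92a-3p dominates, was 2.47 times lower. Its smaller relatives miR-32-5p (84.4 ± 6.23 against 132 ± 24.5 CPM, log2 fold change 0.64, edgeR adjusted p = 0.0184) and miR-92b-3p (log2 fold change -0.095, edgeR adjusted p = 0.799) stayed at or below 0.986% of it in every library. The call of miR-32-5p was lost in 3 other settings (edgeR adjusted p up to 0.0725), and the value of miR-92b-3p was 0.25 without control replicate 3. Without overlap of the groups, the mean share of miR-32-5p went from 0.217% to 0.831% and that of miR-92b-3p from 0.0920% to 0.213%. The last family name in the list, miR-367-3p, was not analysed here.

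In the miR-17 family the summed level was 10256 ± 289 CPM in control and 9791 ± 357 CPM in oxLDL, 1.05 times lower. Inside it, miR-93-5p went from 26.1% ± 0.597 to 34.5% ± 0.736 of the reads and miR-106b-5p from 2.53% ± 0.522 to 3.49% ± 0.282. The groups did not overlap for either share. Against this miR-17-5p went from 41.7% ± 0.947 to 32.5% ± 3.43, while miR-20a-5p was at 29.7% ± 1.44 and 29.4% ± 3.76. The X chromosome arms miR-106a-5p and miR-20b-5p stayed under 0.0495% of the family in every library. Shares are descriptions of these reads, and no test was made of them.

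**Figure D4:**
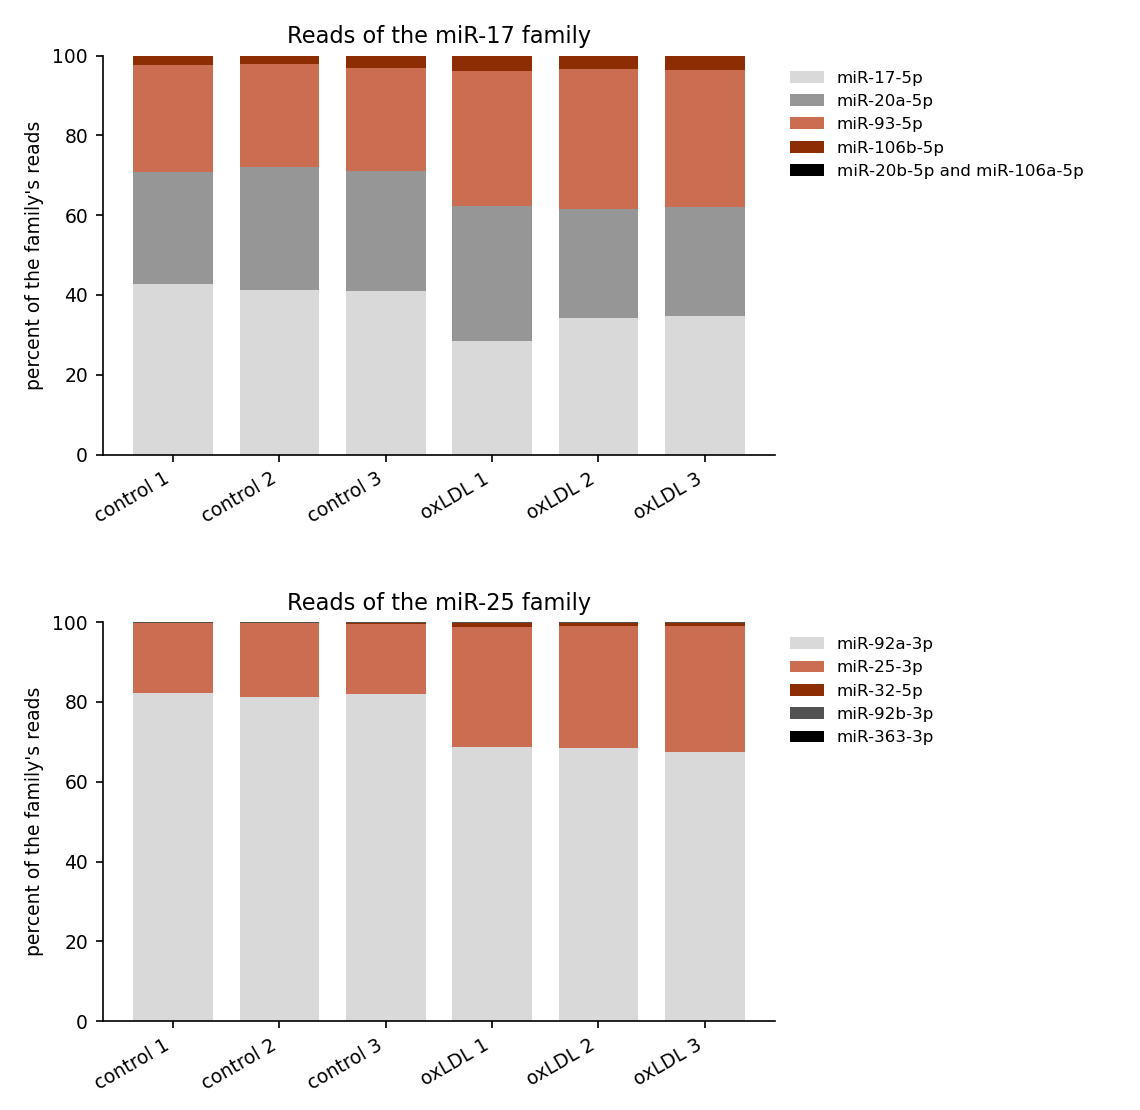
Percent of the reads of the miR-17 seed family (top) and of the miR-25 seed family (bottom) that each arm gave in each of the 6 libraries, stacked to 100%. The miR-25-3p band is near 17.9% in control and 30.8% in oxLDL, and the miR-93-5p band is near 26.1% and 34.5%.

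The X chromosome cluster was barely read. For miR-106a-5p there were 33, 38 and 30 reads in control and 26, 21 and 27 in oxLDL, and for miR-20b-5p 28, 37 and 28 against 20, 16 and 20. After scaling, the groups overlapped for miR-106a-5p and lay just apart for miR-20b-5p. Neither passed: miR-106a-5p had a log2 fold change of -0.092 (95% interval -0.62 to 0.43, edgeR adjusted p = 0.759) and miR-20b-5p one of -0.37 (-0.94 to 0.19, edgeR adjusted p = 0.238). The sign for miR-106a-5p was positive with median centring and without oxLDL replicate 2. Relative to their nearest paralogs the changes were 0.34 for miR-106a-5p over miR-17-5p (SE 0.241, exact permutation p = 0.30) and -0.27 for miR-20b-5p over miR-20a-5p (SE 0.152, exact permutation p = 0.20), on the log2 scale.

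Reads of miR-18b-5p numbered 4, 9 and 11 in control and 11, 15 and 20 in oxLDL, or 1.08 ± 0.487 against 2.62 ± 0.671 CPM (mean ± SD, n = 3 each). The scaled levels of the groups did not overlap. The log2 fold change was 1.27 (SE 0.402, edgeR adjusted p = 0.0333). All 3 oxLDL libraries but only 1 control reached the filter's minimum, so the arm was tested because of the group in which it was high, and the p is no independent support. The call was lost in 8 of 13 other settings, among them DESeq2 (adjusted p = 0.0903), library totals and every omission of 1 library but that of control replicate 3 (edgeR adjusted p up to 0.113). Its paralog miR-18a-5p did not pass (917 ± 37.9 against 791 ± 85.6 CPM, log2 fold change -0.21, edgeR adjusted p = 0.169). The ratio of miR-18b-5p to miR-18a-5p changed by 1.53 on the log2 scale (SE 0.482, exact permutation p = 0.10).

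The last hairpin of the cluster gave the widest spread. There were 52, 62 and 6 reads of miR-363-3p in the controls and 5, 2 and 3 in oxLDL. Control replicate 3 lay with the oxLDL libraries, and after scaling it was below oxLDL replicate 1 (0.819 against 0.931 CPM). The mean was 9.15 times lower in oxLDL (5.38 ± 3.99 against 0.588 ± 0.310 CPM), 13.03 times without control replicate 3, 12.9 times without oxLDL replicate 1 and 6.75 times without control replicate 2. With all 6 libraries the arm did not pass the filter on low counts and was not tested. Only 2 controls and 0 oxLDL libraries reached its minimum, so fits that admit the arm after leaving out a library do so through the high controls, and no p is given from them. The level of its seed relative miR-92a-3p in control replicate 3, 31973 CPM, lay between the other controls. Of 6 further arms of these hairpins, miR-18b-3p had 1 read in control replicate 1 and none elsewhere, and the others were not analysed here.

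How far these low values are separate molecules was not tested. The reads of miR-106a-5p were 0.116% of those it shares with miR-17-5p, those of miR-20b-5p 0.127% of the pair with miR-20a-5p, and those of miR-18b-5p 0.205% of the pair with miR-18a-5p, at 1 or 2 differing bases each. No source used here gives the authors' rule for reads with a mismatch. With the reads of each pair added together, the log2 fold change was -0.42 for miR-17-5p with miR-106a-5p (edgeR adjusted p = 0.0136), -0.082 for miR-20a-5p with miR-20b-5p (0.606) and -0.21 for miR-18a-5p with miR-18b-5p (0.173).

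The paralogous Mir17hg cluster on chromosome 14 also held arms of both directions. Of its 12 named arms 10 were tested, 1 rose, 6 fell and 3 did not pass, with a median log2 fold change of -0.50 (-0.13 over all tested miRNAs, of which 21.7% were higher and 24.0% lower). Among the 6 that fell, miR-20a-3p (edgeR adjusted p = 0.0471) lost its call in 11 of 15 other settings. The arm miR-17-5p, of the same seed as miR-93-5p, fell from 4272 ± 81.7 to 3184 ± 347 CPM (edgeR adjusted p = 0.0137; 0.0513 with median centring). The other arm of that hairpin, miR-17-3p, rose (log2 fold change 0.74, edgeR adjusted p = 0.00781). For miR-20a-5p the value was -0.082 (edgeR adjusted p = 0.608), and it turned positive with median centring.

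By the root mean square difference of centred log2 CPM over the 6 libraries, the profile nearest to miR-25-3p among tested miRNAs was that of miR-106b-3p from the same intron (0.0873), followed by miR-744-5p (0.0892) and miR-425-3p (0.0976). Nearest to miR-93-5p were let-7e-5p (0.0679), miR-99a-3p (0.0757) and miR-29b-2-5p (0.0774). Nearest to miR-106b-5p were miR-532-3p (0.0722), miR-935 (0.120) and miR-152-3p (0.124).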

How the data were processed

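Small RNA of 14 to 36 nt was gel-purified and sequenced on an Illumina instrument, per the labels' protocols. The authors deposited 1 table of estimated counts per mature miRNA, in which 117 of 6654 values were not whole (tolerance 1e-06) and none of the members' was. The build was GRCm38.p5 per the submitters' processing notes; the aligner, counter and miRNA database are not given in the sources used here. Reads carry no molecular identifier, so PCR copies count as reads.

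Values were rounded, groups were taken from titles, and columns were matched by group and number in their names. The comparison of oxLDL with control used edgeR 4.0.16 (R 4.3.3): TMM factors, filterByExpr, the quasi-likelihood test and Benjamini-Hochberg adjustment over 475 entries, threshold 0.05. CPM values are TMM-scaled. Strand ratios were tested with limma 3.58.1 (pseudocount 0.5), pair ratios with exact permutation tests over libraries. Both fits were tested on simulated data. The closest libraries differed by a chi-square of 130.04 per degree of freedom. Sequences are RefSeq's and positions GENCODE M21's, both GRCm38.

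Members and lists were chosen with earlier results of these data known. Named were all members, their seed relatives, the other arms of both paralogous clusters, and the 3 nearest profiles of 3 arms. Alternatives were RLE factors, library totals, other filters, DESeq2 1.42.0, limma-voom, a replicate block, omitted libraries, summed paralogs, median centring, and other strand minimums and pseudocounts.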

Additional observations from a re-analysis of the deposited data

How the results depend on the processing

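Of the 15 other settings of edgeR or other tools, the count of all entries called stayed within 1.5 times the main 217 in every one (161 to 252, and 161 to 211 with 1 library left out). The share called moved more, since the number tested differed: 252 of 1107 with no filter and 167 of 299 with a mean of at least 10 CPM, against 217 of 475. The count of members called, 6 with miR-18b-5p, was 3, 0 higher and 3 lower, with the replicate block (miR-93-3p and both miR-25 arms), where 178 entries passed. It ran from 2 to 7 with 1 library left out. The 7, without control replicate 3, includes miR-18b-5p and miR-363-3p, each admitted through the group where it was high. The counts without oxLDL replicate 1 or 3 also include miR-363-3p. All 3 strand ratios passed with other pseudocounts and minimums, 2 with the replicate block (miR-106b lost, limma adjusted p = 0.0650), and 2 to 3 with 1 library left out, while over all hairpins 34 to 46 passed with 1 library left out and 39 with the block. The sign turned for small values only: miR-106a-5p (0.036 with median centring, and from -0.21 to 0.051 with 1 library left out), miR-20a-5p (0.048 with median centring), miR-92b-3p (0.034 with median centring, and from -0.34 to 0.25), and the log2 ratio of miR-106b-5p to miR-93-5p (from -0.045 to 0.24, and -0.0017 without oxLDL replicate 1). The cause was not tested. Among all entries called, 47.5% were higher, against 34.2% with library totals and 58.7% with median centring; the median log2 fold change was -0.13, and -0.28 with library totals. Equal replicate numbers did not deviate together (correlations of deviations -0.297, -0.228 and -0.117 for numbers 1, 2 and 3), and no library correlated best with its own number, so the block rests on numbers alone. Counts of 2 to 62 reads limit what the X chromosome arms can show.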

Other observations

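Strand balance also shifted at hairpins of the Mir17hg cluster, chosen here after their values were seen. At miR-18a the reads of 5p per read of 3p were 4.52, 5.49 and 5.95 in control and 21.3, 15.6 and 15.3 in oxLDL, a ratio 3.26 times higher (log2 change 1.70, SE 0.217, limma adjusted p = 0.00202). At miR-17 the ratio went the other way, from 14.3, 14.0 and 15.9 to 6.78, 5.83 and 7.21 (log2 change -1.16, SE 0.183, limma adjusted p = 0.00345). At miR-20a it was 1.29 times higher and did not pass (limma adjusted p = 0.212). The paralogous miR-17 and miR-93 hairpins, whose 5p arms share a seed, thus changed their strand ratio in opposite directions, with changes of -1.16 and 1.66 on the log2 scale. That difference was not tested. At both hairpins the scaled levels of the 5p and 3p arms already lay apart in opposite directions. The separation of both ratios follows from that and is no independent support. Of the 49 hairpins that passed, the less read strand was lower relative to the more read one in 38 and higher in 11. The median log2 change of the less over the more read strand was -0.41 over all 124.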
